A study of Mus musculus with 90 samples.

Results

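The genes described here encode the WNT ligands, their receptors, the R-spondins and the secreted inhibitors of the pathway. They were taken by symbol from the count tables of all genes. The symbols were Wnt, Fzd, Sfrp, Dkk and Rspo followed by their numbers, together with Lrp5, Lrp6, Axin2, Wif1, Nkd1 and Notum. This gave 47 of the 24984 genes in each of the EB and NPC tables of WT, CaPS, mCaPS and KO. They comprised 19 ligands, 12 receptors, 4 R-spondins, 9 secreted inhibitors and 3 genes that respond to the pathway and restrain it. J1 mouse embryonic stem cells, a standard laboratory line, were followed along a pair of routes. In the EB series they formed embryoid bodies from hanging drops and were collected on days 0, 6 and 10. In the NPC series they were aggregated for 4 days, then given 5 uM retinoic acid to yield neural progenitors, and collected on days 0, 6 and 8. All lines were grown on mouse feeder fibroblasts that were taken away before differentiation. The lines differed in CBX7, the subunit through which Polycomb repressive complex 1 binds methylated histone H3 in stem cells. WT cells had the normal protein. CBX7-CaPS carried in CBX7 the compaction and phase separation domain of its paralog CBX2, CBX7-mCaPS carried a mutated form of that domain, and a further line was labelled CBX7 KO, which names a knockout of the gene. The last line, CBX7-CaPS-R, is known here only by its label. With 5 lines and 3 days per series there were 30 groups, each with 3 libraries of total RNA depleted of ribosomal RNA (90 libraries). The sources used here do not state whether a line was a single clone.

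WNT ligands are secreted lipid-modified proteins that bind Frizzled receptors. Together with the co-receptors LRP5 and LRP6 they stabilise beta-catenin, which enters the nucleus and activates genes with TCF/LEF factors. R-spondins strengthen the signal by keeping Frizzled receptors on the cell surface. Some DKK proteins, such as DKK1, block LRP5 and LRP6, while SFRP proteins and WIF1 bind the ligands themselves. All Dkk genes are placed among the inhibitors here by symbol alone. Axin2, Nkd1 and Notum are commonly switched on by the signal and damp it. In the embryo WNT signals form the primitive streak and mesoderm, and later pattern the neural tube, where Wnt1 marks the dorsal midline and midbrain.

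Promoter sequences are shown for 4 of the ligands whose levels separated days or lines. Others that did so, such as Wnt2 and Wnt9a, are not shown. Wnt10b (chr15:98771752-98778150, minus strand) and Wnt1 (chr15:98789857-98793830, plus strand) stand head to head 11706 bases apart in mm10 and both rose in the NPC series. Wnt11 separated mCaPS from WT, and Wnt5b rose in embryoid bodies. The RefSeq promoter table (GRCm38.p6) held 30 of the 47 genes, in 33 windows of 250 bases before to 50 after a start site. Windows are chr15:98789607-98789906 (plus) for Wnt1 and chr15:98778101-98778400 (minus) for Wnt10b. They are chr7:98834862-98835161 (plus, 1 of 2 windows) for Wnt11 and chr6:119449337-119449636 (minus, 1 of 3 windows) for Wnt5b. For Wnt11 and Wnt5b the window shown is the one that holds the motif marked below. Each is written 5′ to 3′ along its gene, and capitals mark the TCF/LEF core motif CTTTGAT or its reverse complement ATCAAAG.
Wnt1: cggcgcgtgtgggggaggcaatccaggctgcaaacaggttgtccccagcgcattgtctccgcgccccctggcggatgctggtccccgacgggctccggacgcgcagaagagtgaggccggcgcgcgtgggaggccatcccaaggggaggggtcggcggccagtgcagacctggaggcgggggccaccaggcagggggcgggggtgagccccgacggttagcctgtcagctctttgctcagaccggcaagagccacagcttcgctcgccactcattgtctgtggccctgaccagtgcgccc
Wnt10b: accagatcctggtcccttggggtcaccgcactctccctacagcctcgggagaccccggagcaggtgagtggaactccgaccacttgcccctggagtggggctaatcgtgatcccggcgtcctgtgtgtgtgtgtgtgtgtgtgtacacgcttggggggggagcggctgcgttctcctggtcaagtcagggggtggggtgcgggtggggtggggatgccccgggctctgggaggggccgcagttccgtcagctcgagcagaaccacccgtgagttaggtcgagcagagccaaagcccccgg
Wnt11: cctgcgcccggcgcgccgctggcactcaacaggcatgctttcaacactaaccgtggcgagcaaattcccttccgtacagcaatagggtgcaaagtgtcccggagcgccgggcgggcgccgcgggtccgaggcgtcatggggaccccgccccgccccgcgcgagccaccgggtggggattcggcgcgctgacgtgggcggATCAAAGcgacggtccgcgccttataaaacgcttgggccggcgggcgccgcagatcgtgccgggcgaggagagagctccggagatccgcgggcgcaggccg
Wnt5b: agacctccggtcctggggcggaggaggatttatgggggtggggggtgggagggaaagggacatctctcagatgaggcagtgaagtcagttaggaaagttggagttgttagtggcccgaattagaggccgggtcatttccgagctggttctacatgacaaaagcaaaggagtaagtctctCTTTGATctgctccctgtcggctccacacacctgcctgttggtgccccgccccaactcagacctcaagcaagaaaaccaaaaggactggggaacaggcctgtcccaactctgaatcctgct
The motif, searched on both strands, was in 2 of the 33 windows (6.06%), those of Wnt11 and Wnt5b, and in 3.73% of the 32851 windows of all genes. Both genes are among the 4 shown, so its share among those 4 is not a rate for ligands that changed. The motif lay 51 bases before the start site of the Wnt11 window and 71 before that of the Wnt5b window. That Wnt5b start site lies inside the gene (chr6:119432531-119544347, minus strand). The window at the 5′ end of Wnt5b (chr6:119544298-119544597) lacked the motif. Which start site the cells used was not tested. The 33 windows held a median of 27 CpG dinucleotides, against 7 over all windows. In the windows shown the counts were 26 for Wnt1, 18 for Wnt10b, 45 for Wnt11 and 7 for Wnt5b. The other Wnt11 window held 23 and the other Wnt5b windows 4 and 47, all without the motif.

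The EB libraries of the lines other than CaPS-R had totals between 10.6 and 55.9 M counts, and their NPC libraries between 11.8 and 59.3 M. For CaPS-R the totals ran from 11 to 110 M in EB and from 11.7 to 29.1 M in NPC. The CaPS-R totals are over 20823 EB and 20930 NPC genes, those of the other lines over 24961 and 24984. In EB the 6 WT and CaPS libraries numbered 1 stood apart: 42.1% to 43.5% of their counts from 1 to 20 were even numbers, against 73.5% to 94.1% in the other 30. As a share of the counts outside Rn45s, Gapdh was at 5.11 to 13.2 CPM in those 6 and at 18.6 to 623 in the other 30, and Rn45s, a ribosomal RNA precursor, took 2.7% to 88.7% of the counts of an EB library. Among those 30, Gapdh was at 79.7 to 623 in WT and CaPS and at 18.6 to 41.2 in mCaPS and KO. This split follows the lines, and its part in the EB comparisons between them was not tested. Where most counts are even, a count is not shown to be a separate RNA fragment, so intervals from counting alone may be too narrow. Cbx7 reads did not separate the KO label: they averaged 97 CPM in KO and 111.6 in WT on EB day 0 (adjusted p = 0.97) and 123 and 170 on NPC day 0 (adjusted p = 0.413). Those reads may lie outside any deleted stretch, so the line is called KO-labelled. The labels do not say that replicates were separate cultures, so p-values measure the spread between libraries. In bulk RNA, fewer cells of a type and less RNA per cell cannot be told apart.

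Levels are CPM, counts as a share of the TMM-scaled library total, and values of single libraries follow replicate order 1, 2 and 3 (n = 3 throughout). A number in parentheses after a gene is its log2 fold change, with ± its standard error where given. Changes were tested with edgeR's quasi-likelihood test, and a gene was called at an adjusted p below 0.05. Of the 47 genes, 46 had enough counts to be tested in each series. The exception was Dkk4, an LRP inhibitor, which stayed at or under 0.435 CPM in every library.

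**Figure D1:**
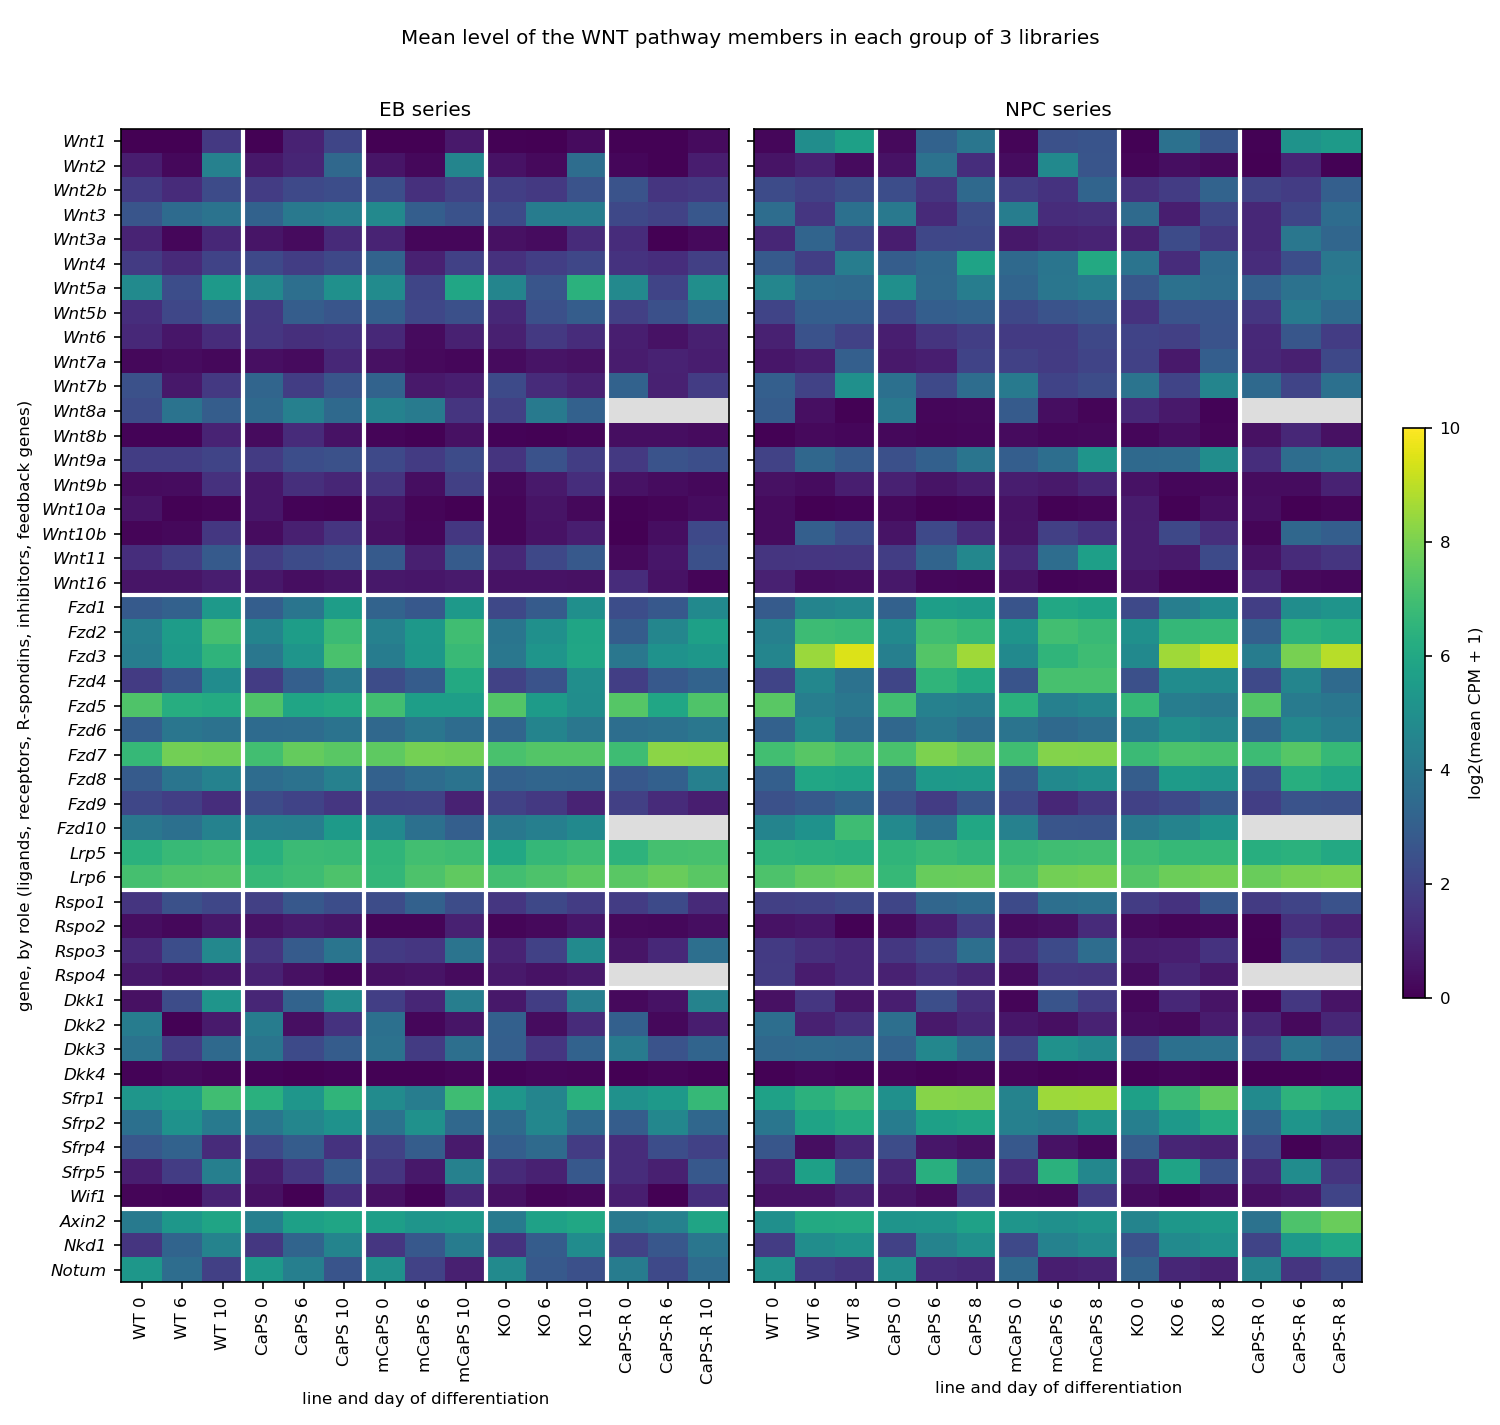
Mean CPM (log2 of mean + 1) of each of the 47 genes in each group of 3 libraries, for line and day, with white lines between roles and between lines; grey marks Wnt8a, Fzd10 and Rspo4 of CaPS-R, which were not analysed here. Fzd3 in the NPC series is the brightest receptor on the last day in WT, and Fzd5 is brighter on day 0 than later in the NPC series of every line.

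Per length of transcript, the receptors outweighed the ligands in WT cells. On EB day 0 the leading Frizzled mRNAs were Fzd5 (21.9 CPM per kb) and Fzd7 (21.7), the latter known from pluripotent cells. No single ligand led in all 3 libraries of that day or of EB day 10. Wnt5a, which mainly acts without beta-catenin, had 5.22, 22.7 and 52.8 CPM on day 0, highest in replicate 3, where the summed fibroblast and feeder markers were also highest (4820 CPM); their part was not tested. On EB day 6 Wnt8a, a primitive streak ligand, led the ligands with a mean of 8.52 CPM per kb, which was 49.9% of their sum. On NPC day 8 Wnt1 led at 21.4, 41% of the ligand sum, ahead of Wnt7b at 7.22. The inhibitors with the highest means were Sfrp1 (27.9) and Dkk1 (16) on EB day 10, and Sfrp2 (35) and Sfrp1 (25.8) on NPC day 8. No test was run between genes.

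**Figure D2:**
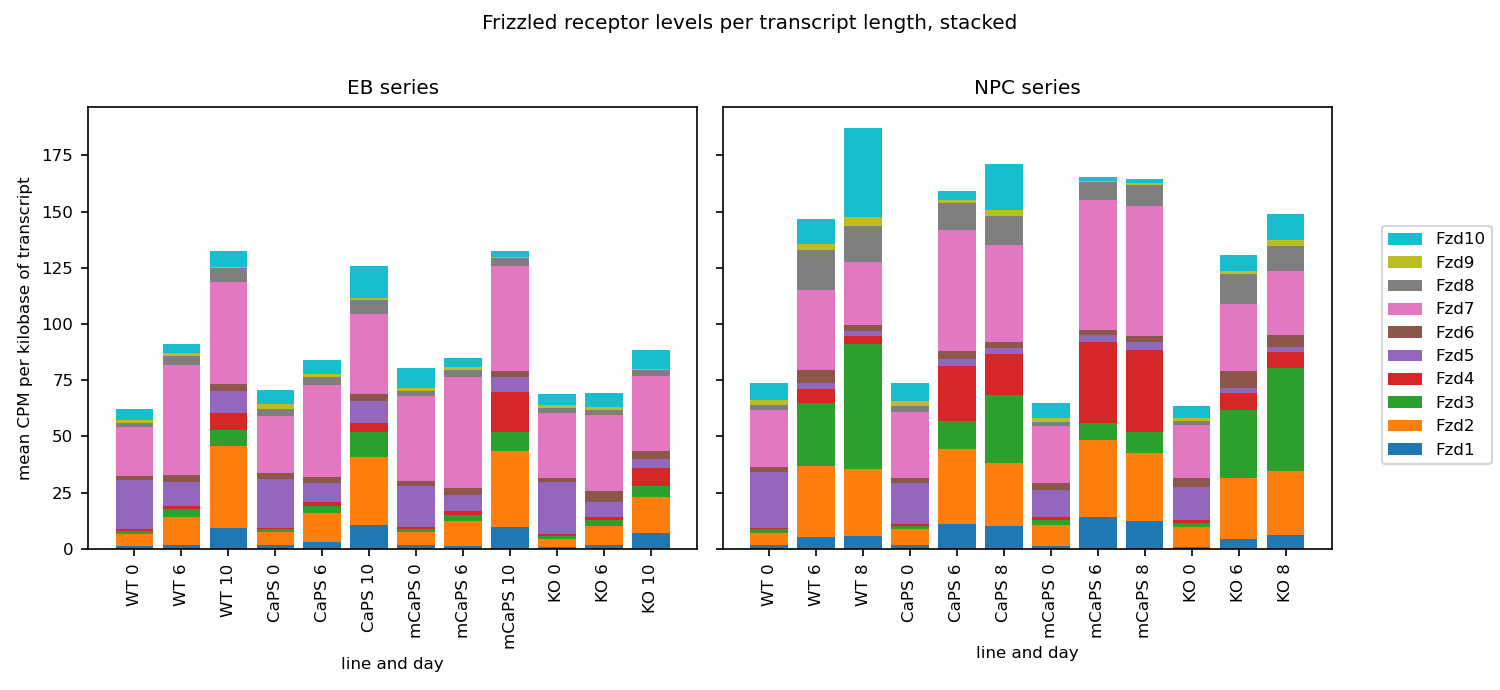
Stacked mean CPM per kilobase of the 10 Frizzled genes by line and day (3 libraries per bar) for WT, CaPS, mCaPS and KO. On NPC day 8 the WT bar holds 55.7 of Fzd3 and 39.8 of Fzd10, and the mCaPS bar 9.29 and 1.69, with Fzd4 at 36.8 in mCaPS and 3.38 in WT.

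In WT embryoid bodies more of these genes rose than fell. By day 10, 20 of the 46 tested were higher than on day 0 and 5 were lower, 54.3% in all, against 29.2% of all tested genes, 14.7% higher and 14.5% lower. Their median log2 fold change was 0.83, against -0.02 over all genes. The increases covered 7 of 19 ligands, 6 of 12 receptors, 1 of 4 R-spondins, 4 of 8 tested inhibitors and 2 of 3 feedback genes. No ligand passed as lower. All 9 mesoderm and cardiac markers and 7 of 8 endoderm markers passed as higher on that day and all 10 pluripotency markers as lower, and their part in these changes was not tested.

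Among the ligands, Wnt2, a ligand of cardiac and endothelial precursors, had 0.653, 0.372 and 1.19 CPM on day 0 and 36.7, 10.9 and 12.1 on day 10 (log2 fold change 4.71 ± 0.76 (SE), adjusted p = 3.61e-05). Every day 10 library was well above every day 0 library, with replicate 1 the highest. Wnt10b, which acts through beta-catenin, went from 0.119, 0 and 0.221 to 3.6, 1.65 and 0.893 CPM (log2 fold change 4.03 ± 0.94). Its neighbour Wnt1 had 2 counts in all on day 0 and 0.934, 4.0 and 1.6 CPM on day 10. That is a ratio of 95.2 with a 95% counting interval of 26.0 to 792 (adjusted p = 0.0234), a call kept in 3 of 6 fits with a library left out. Both neighbours were therefore higher in all day 10 libraries, at low levels. Wnt8b, a forebrain ligand, was at 0, 0.149 and 0.0883 and then 1.29, 1.29 and 0.42 CPM (3.48 ± 1.31), and this call was lost without the WT and CaPS libraries numbered 1. The remaining ligands that rose were Wnt9b (3.03), a kidney ligand, Wnt5b (2.08) and Wnt11 (2.0), which act largely without beta-catenin. The other 12 ligands did not pass, with values from -2.44 for Wnt10a to 1.34 for Wnt3. They were Wnt2b, Wnt3, Wnt3a, Wnt4, Wnt5a, Wnt6, Wnt7a, Wnt7b, Wnt8a, Wnt9a, Wnt10a and Wnt16.

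Of the receptors, Fzd4, known from endothelial cells, went from 1.48, 2.75 and 2.65 to 15.5, 38.4 and 31.1 CPM (log2 fold change 3.61 ± 0.50 (SE), adjusted p = 6.66e-06). Fzd2 rose from 20.2, 15.6 and 21.9 to 119, 142 and 133 (2.77 ± 0.32, adjusted p = 7.32e-07). The groups did not overlap for either, and the 3 day 10 libraries of Fzd2 lay close together. Fzd1 (2.72), Fzd3 (2.34), Fzd8 (1.7) and Fzd7 (1.07) rose as well. Fzd5 fell from 118, 156 and 179 to 40.8, 70.2 and 91.7 CPM (-1.16 ± 0.36) and Fzd9 from 3.92, 3.05 and 3.09 to 0.756, 2.27 and 1.31 (-1.2 ± 0.41). Replicate 1 was the lowest day 10 library for both. With 1 library left out at a time these calls were kept in 3 of 6 fits for Fzd7 and Fzd9 and in 4 for Fzd5, and without all libraries numbered 1 Fzd7 and Fzd9 were no longer called. Lrp5 and Lrp6 differed by 0.51 and 0.25 on the log2 scale, and Fzd6 and Fzd10 by 0.86 and 0.49, without passing.

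Rspo3, the R-spondin of vascular and mesodermal cells, was at 1.13, 1.15 and 1.46 CPM on day 0 and 33.7, 9.3 and 29.2 on day 10 (log2 fold change 4.26 ± 0.66 (SE), adjusted p = 2.48e-05). Replicate 2 was the lowest on day 10 and still above every day 0 library. Rspo1 (0.81), Rspo2 (0.95) and Rspo4 (-0.22) did not pass.

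The inhibitors moved in both directions. Dkk1 had 0.475, 0.52 and 0.132 CPM on day 0, 0.394, 8.19 and 3.24 on day 6 and 49.2, 21 and 37 on day 10 (day 10 log2 fold change 6.65 ± 0.99 (SE), adjusted p = 1.34e-05). This was the largest log2 change among the 25 calls. Sfrp5, known from endoderm and heart, rose from 0.653, 1.26 and 0.397 to 20.9, 15.7 and 20.8 (4.64 ± 0.80). Wif1 went from 0.0594, 0.0743 and 0.154 to 0.667, 1.33 and 0.788 (3.12 ± 0.95), and Sfrp1 rose by 1.71. For all of these the 2 days did not overlap, although the Sfrp1 call was kept in only 2 of 6 fits with a library left out (adjusted p up to 0.114). Dkk2 went the other way, from 7.24, 11.7 and 33.5 CPM to 0, 0 and 0.0954 on day 6 and 0.979, 0.628 and 0.368 on day 10 (log2 fold change -4.76 ± 0.82 (SE), adjusted p = 7.9e-05). Sfrp4 fell from 4.63, 7.36 and 4.55 to 0.756, 1.57 and 1.73 (-2.01 ± 0.46). Dkk2 stood highest in replicate 3 of day 0, the library with the highest summed level of 14 fibroblast and feeder markers. Those markers ranged over 639 to 4820 CPM in sum on day 0, over 46.4 to 99.7 on day 6 and over 336 to 472 by day 10. Of the 14, 8 passed as lower on day 10. None of them was at 0 in any day 0 library. Their part in the fall of Dkk2 was not tested. Dkk3 (-0.43) and Sfrp2 (0.40) did not pass.

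The feedback genes split. Axin2 rose from 14.4, 16.9 and 17.7 to 38.4, 44.1 and 84.4 CPM (1.77 ± 0.46, adjusted p = 0.00434). Nkd1, an inhibitor of Dishevelled, rose from 1.42, 2.64 and 1.66 to 14.2, 19.4 and 30.5 (3.48 ± 0.56, adjusted p = 3.64e-05). Notum, a secreted enzyme that removes the lipid from WNT ligands, fell from 49.7, 25.8 and 37.5 to 3.65, 1.61 and 2.97 (log2 fold change -3.78 ± 0.66 (SE), adjusted p = 8.65e-05). No library of one day overlapped the other for these 3 genes, so the feedback genes did not share a direction.

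On EB day 6, 5 genes were higher and 3 lower than on day 0 (17.4% of 46, against 7.88% of all tested genes, 3.26% higher and 4.62% lower). Dkk1 (3.48), Nkd1 (2.11), Fzd2 (1.23), Fzd7 (1.17) and Fzd8 (1.13) rose, although the Dkk1 libraries of the 2 days overlapped. Dkk2 (-8.57), Wnt5a (-2.68) and Dkk3 (-2.4) fell, and all 14 fibroblast and feeder markers passed as lower with them; their part was not tested. WT libraries with the same number deviated together in EB. With the replicate number as a block, 14 genes were called, the same 8 and in addition Sfrp2, Fzd3 and Fzd6 as higher and Notum, Wnt7b and Fzd5 as lower. Leaving out 1 library at a time gave 4 to 10 calls, with 4 without replicate 3 of day 0 or replicate 2 of day 6. Wnt8a was at 7.3, 2.71 and 2.21 CPM on day 0, 5.23, 24.6 and 9.02 on day 6 and 4.27, 5.3 and 10.4 on day 10. Its spread on day 6 was wide and neither difference passed.

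**Figure D3:**
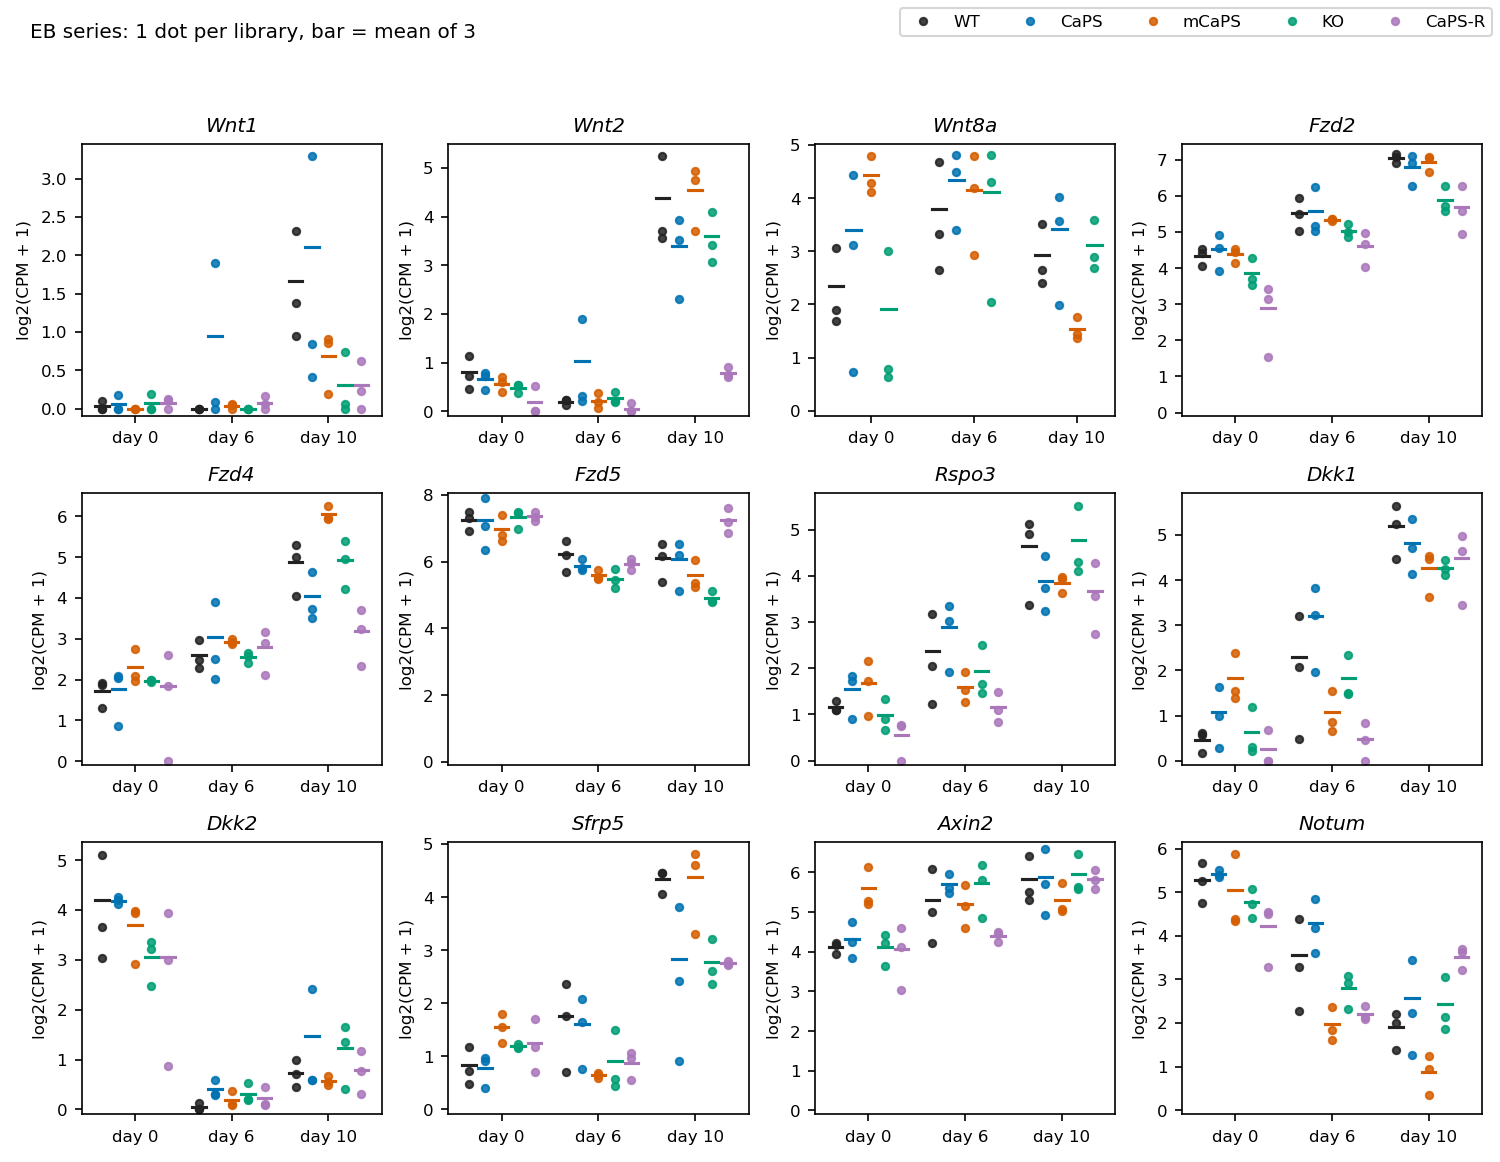
EB series, log2(CPM + 1) of 12 genes in every library (dots) with the group mean (bars), by day and line; CaPS-R comes from a separate table. Dkk1, Wnt2, Fzd4 and Sfrp5 of WT are higher in every day 10 library than in every day 0 library, while Notum and Dkk2 are lower.

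In the neural series 15 of 46 genes were higher and 5 lower in WT on day 8 than on day 0. This was 43.5%, less than the 52.4% of all tested genes, 27.5% higher and 24.9% lower. The median log2 fold change was 0.93, against 0.05 over all genes. By role the calls were 4 ligands up and 1 down, 7 receptors up and 1 down, 2 inhibitors up and 2 down, 2 feedback genes up and 1 down, and no R-spondin. On the same day all 10 neural progenitor markers and 6 of 8 neuron markers passed as higher, and 9 of 10 pluripotency markers as lower; their part in the changes below was not tested.

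Wnt1 was the ligand with the largest increase. It stood at 0.255, 0.104 and 0.0725 CPM on day 0, 6.85, 43 and 37.7 on day 6 and 53.6, 48.5 and 50.2 on day 8 (day 8 log2 fold change 8.5 ± 1.44 (SE), adjusted p = 1.72e-05). The 3 libraries of day 8 lay close together, while replicate 1 lagged on day 6. Its neighbour Wnt10b went from 0.17, 0.416 and 0.0725 on day 0 to 3.02, 11.3 and 7.09 on day 6 and 2.58, 6.27 and 3.53 on day 8 (4.15 ± 0.94). The day 6 library that was lowest for Wnt1 was also the lowest for Wnt10b. Wnt7a and Wnt7b, ligands of neurons and of brain vessel growth, had day 0 values of 1.11, 0.26 and 0.217 and of 12.8, 4.26 and 4.64 CPM. On day 8 Wnt7a stood at 4.69, 6.24 and 10.6 (3.79 ± 0.88). Wnt7b stood at 33.5, 21.5 and 40.6 (2.14 ± 0.55). Both were higher in every day 8 library. Wnt8a fell from 9.06, 0.52 and 10.0 to 0, 0 and 0.15 CPM (log2 fold change -7.14 ± 1.38 (SE), adjusted p = 8.26e-05), where day 8 held 4 counts in all and replicate 2 of day 0 was already low. The other 14 ligands ran from -1.91 for Wnt10a to 1.69 for Wnt6 without passing; Wnt4 (1.58) and Wnt6 had the lowest adjusted p among them, 0.0538 and 0.0682.

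Fzd3, a receptor used in axon guidance and planar polarity (chr14:65192441-65262463, minus strand), had the largest rise of the receptors. It went from 17.7, 18.9 and 31.1 CPM on day 0 to 308, 479.5 and 284 on day 6 and 816, 633 and 681 on day 8 (log2 fold change 4.98 ± 0.66 (SE), adjusted p = 5.86e-07). Each day was above the one before in all libraries. Fzd8 rose from 8.8, 5.57 and 7.0 to 64.7, 48.4 and 49 (2.93 ± 0.34). Fzd2 rose from 24.3, 16 and 17.8 to 111, 93.8 and 120.4 (2.49 ± 0.22). Both of them had already reached these levels on day 6. Fzd10, a receptor of the dorsal neural tube, rose from 33.3, 13.1 and 19.4 to 206, 53.2 and 97.7 (2.44 ± 0.85, adjusted p = 0.0181), with a wide spread on day 8 and a call kept in 3 of 6 fits with a library left out. Fzd4 (2.0), Fzd1 (1.93) and Lrp6 (0.50) also rose. Fzd5 fell from 144, 206 and 167 to 15, 17.1 and 22.6 on day 6 and 7.06, 20.4 and 16.6 on day 8 (log2 fold change -3.55 ± 0.44 (SE), adjusted p = 2.03e-07). No library of either later day reached the day 0 range. Fzd6 (0.59), Fzd7 (0.11), Fzd9 (0.89) and Lrp5 (-0.19) did not pass.

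Among the inhibitors, Sfrp5 peaked on day 6. It was at 1.32, 0.624 and 0.652 CPM on day 0, 37.4, 49.2 and 66.7 on day 6 and 1.84, 10.6 and 7.58 on day 8 (log2 fold change 5.91 ± 0.73 on day 6 and 2.97 ± 0.67 on day 8). Sfrp2, an inhibitor of neural epithelium, rose from 14.7, 13 and 15.1 to 74.6, 57.7 and 77.5 (2.3 ± 0.61). Both later days lay above day 0 for both genes. Sfrp4 fell from 3.19, 4.97 and 7.83 to 0.475, 1.4 and 1.39 (-2.29 ± 0.52). Dkk2 fell from 11.8, 17.6 and 4.28 to 1.01, 1.08 and 2.55 (-2.87 ± 0.71), with replicate 3 of day 0 the lowest of its group. In that library the fibroblast and feeder markers summed to 542 CPM, against 2380 and 4515 in the other two, and 12 of the 14 passed as lower on day 8. Their part in the fall of Dkk2 was not tested.

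The feedback genes moved as in the EB series. Nkd1 rose from 3.23, 1.25 and 2.94 to 38.7, 31.4 and 33.1 CPM (3.81 ± 0.49, adjusted p = 3.15e-07). Axin2 rose from 43.6, 21.2 and 25.9 to 70.4, 75.7 and 59.6 (1.18 ± 0.42, adjusted p = 0.0188). Notum fell from 38.6, 31.2 and 25.9 to 1.01, 2.18 and 2.48 (-4.08 ± 0.75, adjusted p = 5.01e-05). Day 6 gave the same directions for all 3. The Axin2 call was kept in 2 of 6 fits with a library left out on day 8 (adjusted p up to 0.0889) and in 2 of 6 on day 6 (up to 0.139), while Nkd1 and Notum kept theirs in all 6. The 4 R-spondins and Dkk1, Dkk3, Sfrp1 and Wif1 did not pass on day 8. The lowest adjusted p among them was 0.0521, for Rspo2 (-3.23), followed by 0.0814 for Sfrp1.

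On NPC day 6, 15 genes were higher and 6 lower than on day 0 (45.7% of 46, against 37.3% of all tested genes, 19% higher and 18.2% lower). Wnt3a (2.87), a ligand of the dorsal midline, Wnt6 (2.38), Wnt9a (1.63) and Fzd6 (1.67) passed on day 6 and not on day 8. Wnt3, a streak ligand, passed as lower on day 6 (-2.46). With a library left out that call was kept in 1 of 6 fits (adjusted p up to 0.19) and those of Wnt3a, Wnt6 and Wnt9a in 3, while Fzd6 kept it in all 6. The 2 later days were not tested against each other. On day 6, 8 of 10 neural progenitor markers passed as higher, and 7 of 8 endoderm markers, with 1 lower. Of the pluripotency markers 9 of 10 passed as lower, and 12 of 14 fibroblast and feeder markers did so too. The part of these cell types was not tested.

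**Figure D4:**
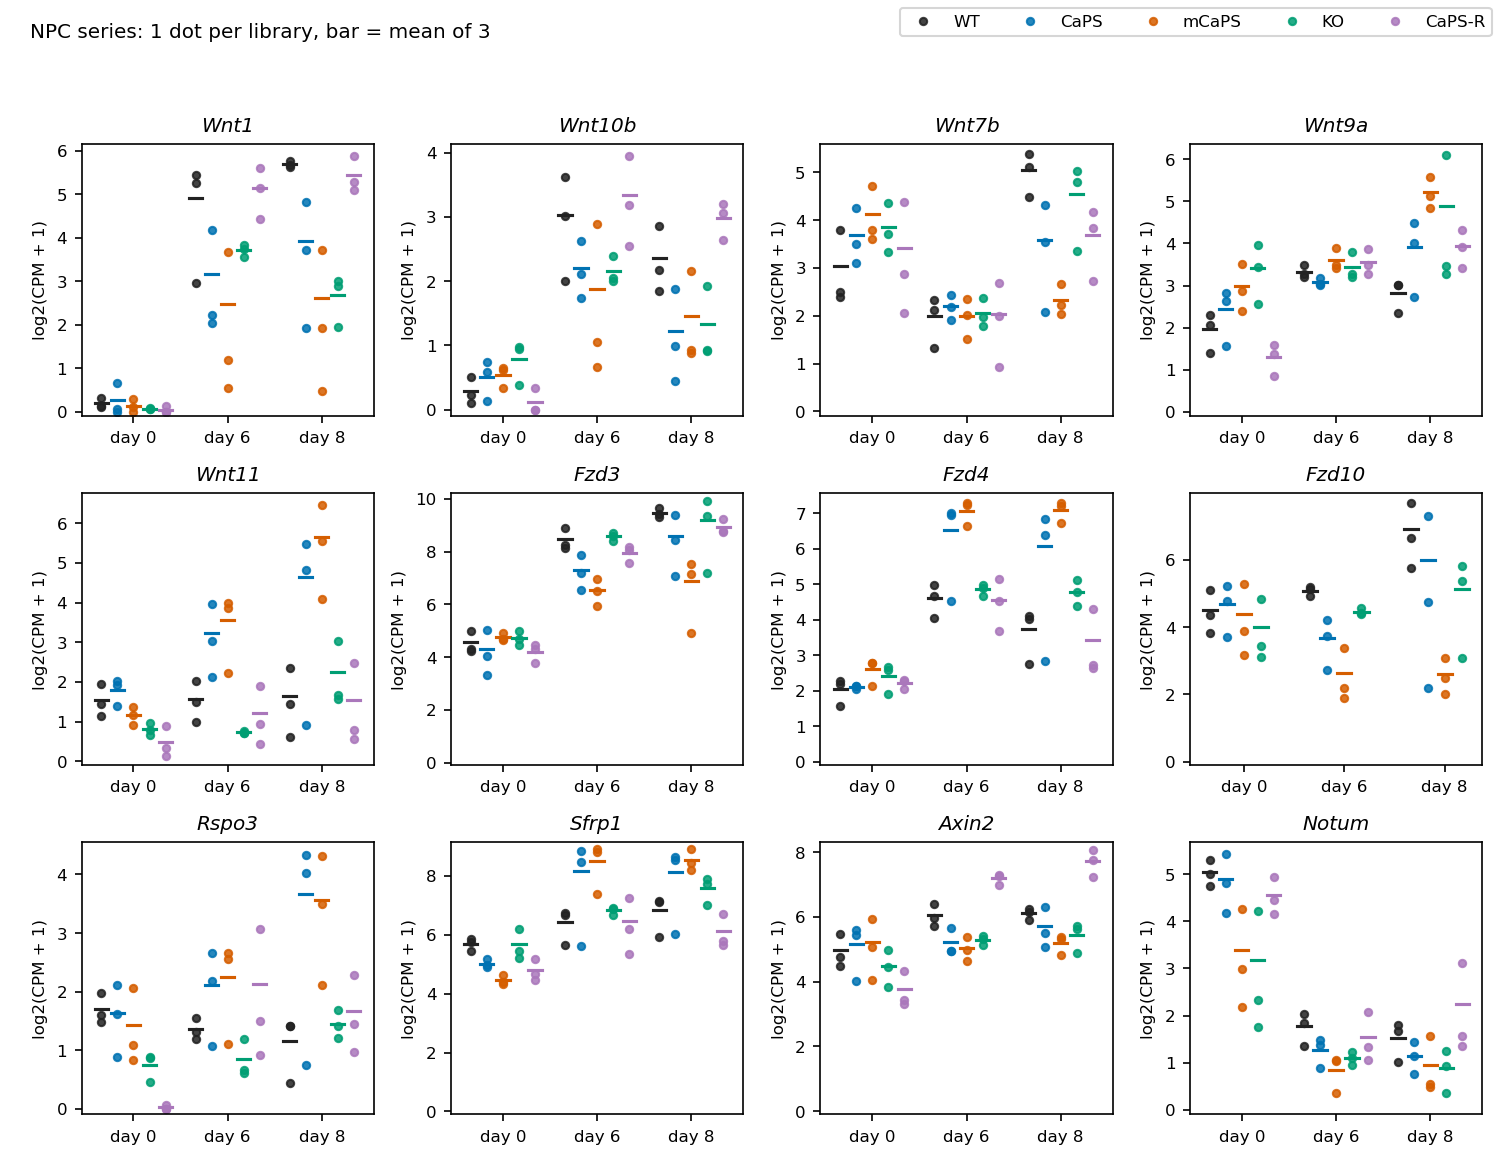
NPC series, log2(CPM + 1) of 12 genes in every library (dots) with the group mean (bars), by day and line; Fzd10 of CaPS-R was not analysed here. On day 8 the mCaPS libraries lie apart from the WT libraries for Wnt7b, Wnt9a, Wnt11, Fzd3, Fzd4, Fzd10 and Rspo3, and the CaPS libraries spread across both ranges for Wnt11, Fzd4 and Rspo3.

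The comparison of lines with the most calls was that of mCaPS with WT in the neural series. On day 8, 12 of 46 genes were higher and 7 lower in mCaPS than in WT (41.3%, against 18.5% of all tested genes, 9.39% higher and 9.06% lower). The calls held 6 of 19 ligands, 7 of 12 receptors, 3 of 4 R-spondins and 3 of 8 inhibitors, and no feedback gene. The cell-type markers also differed. All 8 neuron markers passed as lower, with a summed level of 15.0 to 110 CPM in mCaPS and 968 to 1934 in WT. Of 10 neural progenitor markers 7 passed as lower (464 to 929 CPM, against 2439 to 3332). Mesoderm and cardiac markers were at 301 to 506 CPM against 16.4 to 45.3, with 6 of 9 higher. Endoderm markers were at 163 to 425 against 18.2 to 68.2, with 3 of 8 higher. Fibroblast and feeder markers were at 761 to 2570 against 103 to 293, with 5 of 14 higher. In single libraries of WT up to 3 of the 9 mesoderm and cardiac markers were at 0, and in mCaPS up to 1 neuron and 2 fibroblast markers. The part of these cell types in the results that follow was not tested.

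Among the ligands, Wnt11, a ligand of cardiac and gastrulating mesoderm, was at 45.6, 16 and 86.6 CPM in mCaPS and 0.534, 4.09 and 1.73 in WT (log2 fold change 4.53 ± 0.92 (SE), adjusted p = 0.00197). Wnt9a was at 33.6, 27.6 and 46.8 and 4.09, 7.13 and 7.06 (2.56 ± 0.59). All mCaPS libraries were above all WT libraries for both, and the calls held whichever single library was left out. Wnt2 was at 3.1, 4.75 and 7.57 and 0.237, 0 and 0.45 (4.53 ± 1.4), a call that held in 3 of the 6 fits with a library left out. Wnt7b went the other way, at 3.1, 5.38 and 3.69 CPM in mCaPS and 33.5, 21.5 and 40.6 in WT (log2 fold change -2.97 ± 0.57 (SE), adjusted p = 0.00135). Wnt1 was at 2.82, 12.2 and 0.388 and 53.6, 48.5 and 50.2 (-3.3 ± 1.05, adjusted p = 0.029). Replicate 2 of mCaPS was the highest of its group for Wnt1 and for Wnt10b, which did not pass. Wnt3 was also lower, at 1.0, 1.2 and 2.46 against 13.3, 8.72 and 13.5 (-2.94 ± 0.92). The Wnt1 call held in 3 of 6 fits with a library left out and that of Wnt3 in 2. Wnt4 was at 109, 30.1 and 62.5 in mCaPS and 22.3, 14.1 and 17.6 in WT and missed the threshold (adjusted p = 0.0517). The other twelve ligands lay between -1.72 for Wnt3a and 1.06 for Wnt2b without passing.

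The Frizzled genes differed in both directions. Fzd10 (chr5:128601106-128604093, plus strand) was at 4.6, 7.49 and 3.04 CPM in mCaPS and 206, 53.2 and 97.7 in WT (log2 fold change -4.55 ± 0.94 (SE), adjusted p = 0.00223). Fzd3 was at 140.4, 186 and 29.3 against 816, 633 and 681 (log2 fold change -2.58 ± 0.59 (SE), adjusted p = 0.00425). Fzd4 (chr7:89404366-89410110, plus strand) was at 145, 106 and 156 against 5.79, 15.3 and 16.4 (log2 fold change 3.44 ± 0.63 (SE), adjusted p = 0.00104). None of these 3 pairs of groups overlapped, and each call held in all 6 fits with a library left out. Fzd9 (-2.0) was lower as well, while Fzd1 (1.16), Fzd7 (1.05) and Lrp5 (0.69) were higher. With a library left out, Fzd1, Fzd7 and Fzd9 kept their calls in 3 of 6 fits and Lrp5 in 2 (adjusted p up to 0.165 by edgeR). Fzd2 (0.01), Fzd5 (0.67), Fzd6 (0.03), Fzd8 (-0.84) and Lrp6 (0.26) did not pass. The 12 receptors summed to 215 CPM per kb in mCaPS and 224 in WT, while the genes that made up the sum differed; the sums were not tested.

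Rspo3 was at 19, 3.31 and 10.3 CPM in mCaPS and 0.356, 1.67 and 1.65 in WT (3.15 ± 0.85, adjusted p = 0.0121). Rspo2, an R-spondin of limb and neuromuscular tissue, was at 2.26, 0.816 and 1.03 and 0, 0.0538 and 0.0751 (4.94 ± 1.42), where WT had 4 counts in all. Rspo1 was higher by 1.86. All mCaPS libraries lay above all WT libraries for these 3 genes. Of the inhibitors, Sfrp4 was at 0.126, 0.048 and 0.194 against 0.475, 1.4 and 1.39 CPM (log2 fold change -3.15 ± 0.60 (SE), adjusted p = 0.00127), while Sfrp5 (1.83) and Sfrp1 (1.73) were higher. The Sfrp4 call held in all 6 fits with a library left out, that of Sfrp1 in 3 and that of Sfrp5 in 2. Dkk1 (2.36), Dkk2 (-0.73), Dkk3 (1.46), Sfrp2 (-1.04), Wif1 (1.48) and Rspo4 (0.59) did not pass. Axin2 was at 39.4, 40.9 and 27.3 in mCaPS and 70.4, 75.7 and 59.6 in WT without passing (adjusted p = 0.111), and Nkd1 (-0.33) and Notum (-0.99) did not pass either. Axin2 was lower in every mCaPS library than in every WT library. Over all single libraries left out there were 7 to 20 calls. Without replicate 1 of WT there were 7, and without replicate 3 of mCaPS 10.

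**Figure D5:**
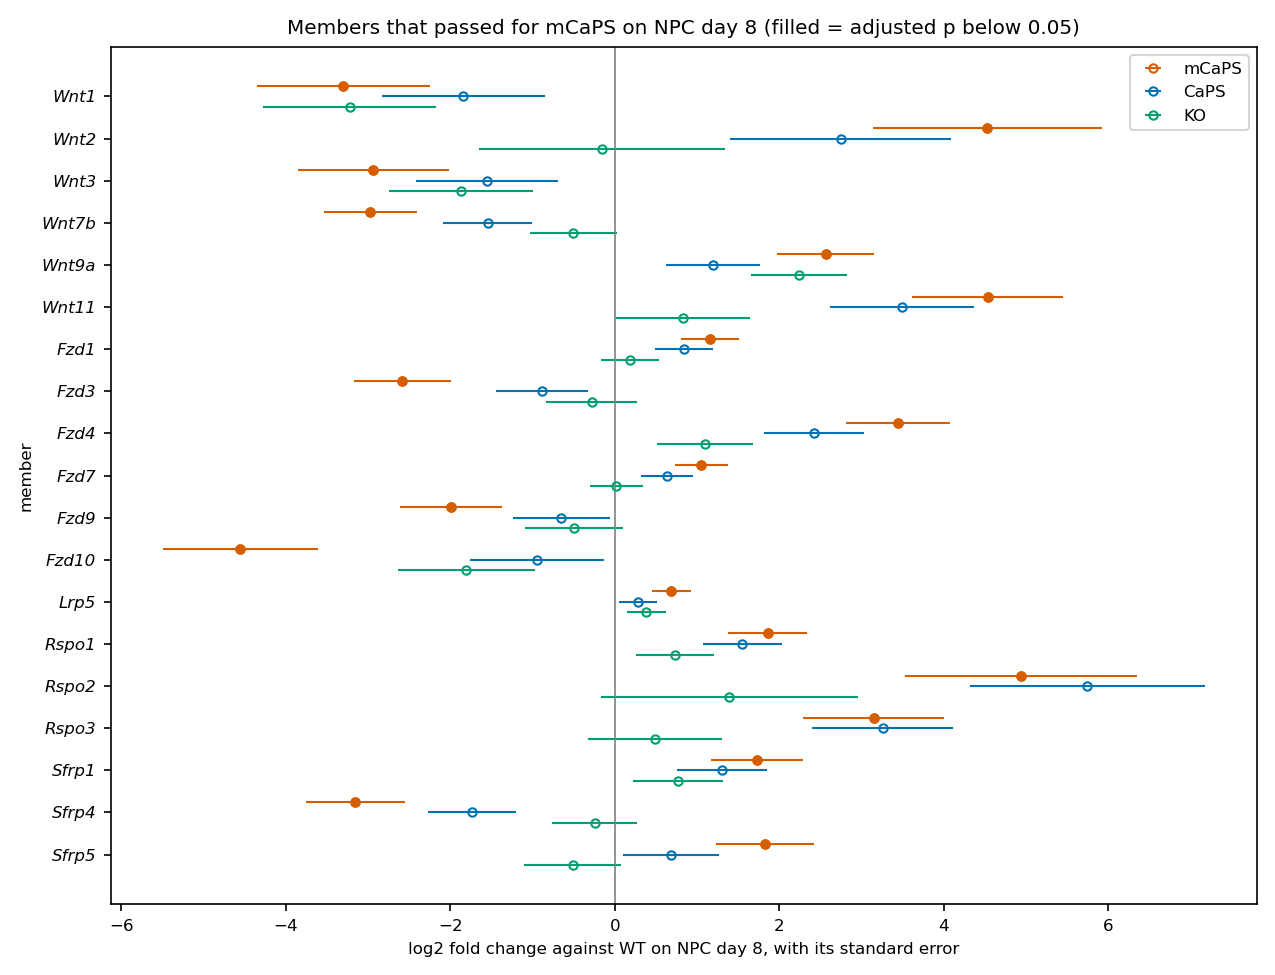
Log2 fold change against WT on NPC day 8 with its standard error, for the 19 genes that passed in mCaPS, in mCaPS, CaPS and KO (3 libraries each, sharing the same WT libraries); filled points passed at an adjusted p below 0.05. No point of CaPS or KO is filled, and the CaPS values of Wnt11, Fzd4, Rspo2 and Rspo3 lie at 2.43 or above.

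On NPC day 6, 5 genes were higher and 3 lower in mCaPS (17.4% of 46, against 2.22% of all tested genes, 1.35% higher and 0.87% lower). Fzd4 was at 155, 98.7 and 149 CPM against 15.6, 24.4 and 30.8 in WT (2.51 ± 0.60). Sfrp1 was at 446, 166 and 486 against 48.8, 106 and 102 (2.1 ± 0.56). Wnt2 was at 16.5, 12.9 and 49.1 against 0.0816, 1.03 and 1.53 (4.89 ± 1.33). These 3 genes were above WT in every mCaPS library. Rspo1 was at 17.6, 5.87 and 11.6 against 3.34, 2.72 and 2.86 (1.97 ± 0.48). Fzd1 was at 63.5, 40.1 and 84.3 against 23.2, 23.7 and 19.2 (1.51 ± 0.35). The lower genes were all receptors. Fzd8 was at 26.8, 31 and 19.7 against 60.7, 60.3 and 59 (-1.22 ± 0.31). Fzd6 was at 9.26, 12.6 and 7.22 against 26.1, 21.1 and 24.6 (-1.3 ± 0.31). Fzd9 was at 0.473, 2.43 and 0.56 against 5.11, 6.95 and 5.5 (-2.34 ± 0.63). Every one of these calls depended on the libraries used. By edgeR, 0 genes were called without any 1 of the WT libraries or without replicate 1 or 3 of mCaPS, and 12 without replicate 2 of mCaPS. Mesoderm and cardiac markers were at 269 to 913 CPM in mCaPS and 26.7 to 59.3 in WT on this day, with 6 of 9 higher. Neuron markers summed to 12.5 to 21.7 against 67.1 to 129, with 4 of 8 lower, and fibroblast and feeder markers to 404 to 1468 against 146 to 235, with 3 of 14 higher. The part of these cell types was not tested.

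On NPC day 0, before differentiation, Dkk2 was at 0.717, 0.492 and 0.399 CPM in mCaPS and 11.8, 17.6 and 4.28 in WT (log2 fold change -4.38 ± 0.77 (SE), adjusted p = 0.00171). Fzd2 was at 45, 30.0 and 29.4 and 24.3, 16 and 17.8 (0.85 ± 0.21). These were the 2 calls of 46 (4.35%, against 3.02% of all tested genes, 1.05% higher and 1.97% lower). In the KO-labelled line, Dkk2 was at 0.225, 0.164 and 0.36 CPM (log2 fold change -5.49 ± 0.82 (SE), adjusted p = 0.00035), Fzd2 at 34.9, 34.4 and 24.9 (0.70) and Fzd6 at 19.7, 16.7 and 15.4 against 7.74, 5.2 and 9.64 in WT (1.2 ± 0.31). These were 3 of 46 (6.52%, against 5.52% of all tested genes, 2.4% higher and 3.11% lower). The low Dkk2 of both lines held whichever library was left out, whereas Fzd2 and Fzd6 in the KO-labelled line held in 2 of 6 fits and Fzd2 in mCaPS in 3. Without replicate 3 of the KO-labelled line 8 genes were called, and without its replicate 1 or 2 or replicate 2 of WT only Dkk2. Fibroblast and feeder markers summed to 133 to 238 CPM in mCaPS and 110 to 164 in the KO-labelled line, against 542 to 4515 in WT. Of the 14 markers, 12 passed as lower in mCaPS and 14 in the KO-labelled line, and their part in the Dkk2 result was not tested.

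Since the lines differed on day 0, the course from day 0 to day 8 of mCaPS was tested against that of WT. Here 7 genes rose more or fell less in mCaPS and 5 the reverse (12 of 46, against 9.49% of all tested genes, 4.68% higher and 4.82% lower). Wnt11 (5.18 ± 1.22, adjusted p = 0.00807), Sfrp1 (3.01 ± 0.78, adjusted p = 0.0151), Sfrp4 (-3.24 ± 0.78, adjusted p = 0.00874) and Wnt7b (-4.17 ± 0.78, adjusted p = 0.00212) kept this call in each of 12 fits with a library left out. Of the 12 fits, the call was kept in 10 for Dkk2, 8 for Fzd3 and for Fzd10, 5 for Dkk3, 4 for Wnt7a, 3 for Fzd4 and 2 for Rspo2 and for Rspo3. A course difference also holds any difference on day 0. On that day mean Sfrp1 was 4.82 CPM per kb in mCaPS and 11.7 in WT. Wnt7b was at 3.74 and 1.64, and Sfrp4 at 3.22 and 3.03. Wnt7a had 236, 70 and 36 counts in mCaPS and 26, 10 and 6 in WT. None of these 4 genes passed on day 0. The count of calls was 4 without replicate 2 of WT day 0 or replicate 1 of WT day 8, 5 without replicate 3 of mCaPS day 8 and 7 without replicate 1 of mCaPS day 0. In the same test 11 of 14 fibroblast and feeder markers had a higher course in mCaPS, and 5 of 8 neuron and 2 of 10 neural progenitor markers a lower one; their part was not tested.

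CaPS gave no call against WT by edgeR in the neural series on day 0, 6 or 8 (0 of 46 each, against 0%, 0% and 0.0112% of all genes). At an unadjusted p below 0.05 there were 1, 12 and 13 of the 46, against 639, 1175 and 1567 of all 17818 tested genes. DESeq2 called 0, 0 and 4 of the 46. The 3 CaPS libraries of day 8 differed among themselves. Wnt11 was at 0.872, 43.9 and 27.3 CPM (3.5 ± 0.88, adjusted p = 0.118). Fzd4 was at 6.2, 112 and 82.3 (2.43 ± 0.61, adjusted p = 0.118). Rspo3 was at 0.678, 19.3 and 15.3 (3.26 ± 0.86, adjusted p = 0.135). For each, replicate 1 lay among the WT libraries and replicates 2 and 3 above them. Fzd10 was at 156, 3.54 and 25.9, Fzd3 at 671, 133 and 351 and Wnt1 at 27.5, 2.82 and 12.2, with replicate 1 the highest of the 3. Rspo2 was at 0.194, 2.5 and 4.49 (5.75 ± 1.43, adjusted p = 0.114). The markers split in the same way. In replicate 1, neuron markers summed to 1667 CPM and mesoderm and cardiac markers to 17.4. In replicates 2 and 3, neuron markers summed to 148 and 398, and mesoderm and cardiac markers to 466 and 331. Their part in these differences was not tested. Without that replicate 10 genes were called on day 8: Fzd4, Wnt11, Rspo1, Rspo2, Rspo3, Sfrp1, Fzd7 and Wnt2b as higher and Wnt7b and Fzd10 as lower. Without replicate 1 on day 6, Sfrp1 and Fzd4 were called. The share of all genes called in these refits is not given here, so the counts cannot be set against it. The numbers paired the CaPS and WT libraries, and the fit with that block gave no call either.

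CaPS and mCaPS differed directly on NPC day 8 in 1 of 46 genes (2.17%, against 1.59% of all tested genes, 1.17% higher and 0.427% lower). This was Fzd10, at 156, 3.54 and 25.9 CPM in CaPS and 4.6, 7.49 and 3.04 in mCaPS (log2 fold change 3.61 ± 0.90 (SE), adjusted p = 0.0385). The libraries overlapped. The call was lost without replicate 1 of CaPS or any 1 of the mCaPS libraries, and 3 genes were called without replicate 2 of CaPS. Of 8 neuron markers 5 passed as higher in CaPS in the same comparison, and their part was not tested.

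The KO-labelled line gave no call against WT by edgeR on NPC day 6 or day 8 (0 of 46, against 0.0281% and 0.0505% of all genes). At an unadjusted p below 0.05 there were 3 and 6 of the 46, against 848 and 1520 of all 17818 tested genes. DESeq2 called 0 and 1 of the 46. Wnt1 was at 6.38, 7.02 and 2.85 CPM on day 8 in the KO-labelled libraries, below all WT libraries (-3.23 ± 1.05, adjusted p = 0.297). Wnt9a was at 8.69, 9.99 and 67.9 (2.24 ± 0.59, adjusted p = 0.167) and Fzd3 at 959, 647 and 145. Replicate 3 stood apart for both, and its neuron markers summed to 175 CPM, against 824 and 1036 in the other two; their part was not tested. Neither the CaPS nor the KO-labelled course differed from that of WT in any of the 46 genes by edgeR (against 0% and 0.337% of all genes). At an unadjusted p below 0.05 there were 7 and 6 of the 46, against 887 and 1949 of all 17818 tested genes. DESeq2 called 0 and 2 of the 46.

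In embryoid bodies few differences between lines passed. By edgeR, CaPS, mCaPS and the KO-labelled line gave 0 calls of 46 against WT on days 0 and 6, and CaPS and mCaPS gave 0 on day 10. Over all genes the share called was 0%, 0% and 0.00562% for CaPS on days 0, 6 and 10, 0.916%, 0.54% and 0.708% for mCaPS, and 0.641% and 0.646% for KO on days 0 and 6. At an unadjusted p below 0.05 there were 1, 8 and 4 of the 46 for CaPS, 11, 5 and 6 for mCaPS, and 2 and 4 for KO. Over all 17791 tested genes these counts were 255, 971 and 763 for CaPS, 2025, 751 and 1173 for mCaPS, and 1230 and 1061 for KO. Of the 46, DESeq2 called 6 for mCaPS on day 0 and 0 in each of the other comparisons. No course of these lines from day 0 to day 10 differed from that of WT in any of the 46 genes by edgeR (0%, 0% and 0.00562% of all genes). At an unadjusted p below 0.05 the courses gave 1, 11 and 6 of the 46, against 437, 933 and 632 of all 17791. DESeq2 called 0 of the 46 in these courses. On day 0 mCaPS had Axin2 at 35.7, 37.7 and 69.3 CPM against 14.4, 16.9 and 17.7 in WT (adjusted p = 0.127) and Dkk1 at 4.21, 1.6 and 1.92 against 0.475, 0.52 and 0.132 (adjusted p = 0.151). The groups did not overlap for either. Replicate 3 of mCaPS was the library in which Rn45s took 88.7% of the counts.

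Fzd8 was the 1 gene called in the KO-labelled line on EB day 10 (2.17% of 46, against 0.877% of all tested genes, 0.253% higher and 0.624% lower). It was at 8.67, 7.02 and 9.07 CPM in the KO-labelled libraries and 17.9, 23.1 and 20.3 in WT (log2 fold change -1.31 ± 0.29 (SE), adjusted p = 0.0159). Every KO-labelled library was below every WT library, and the call was lost without replicate 2 of WT and without replicate 2 or 3 of the KO-labelled line. Fzd2 was at 76.5, 47.2 and 51.6 against 119, 142 and 133 (adjusted p = 0.0632) and Fzd5 at 26.5, 27 and 33.8 against 40.8, 70.2 and 91.7 (adjusted p = 0.131). Without the WT and CaPS libraries numbered 1 these 3 receptors were called together.

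CaPS and mCaPS differed on EB day 10 in 4 genes that were higher in CaPS and 1 that was lower (10.9% of 46, against 3.18% of all tested genes, 2.7% higher and 0.472% lower). Fzd4 was at 12.1, 23.7 and 10.3 CPM in CaPS and 60.9, 75.7 and 60.5 in mCaPS (log2 fold change -2.09 ± 0.47 (SE), adjusted p = 0.00833), with no overlap. Notum was at 3.7, 1.42 and 9.83 and 0.278, 1.35 and 0.909 (2.57 ± 0.64). Fzd10 was at 13.6, 9.01 and 106 and 5.43, 8.08 and 7.89 (2.58 ± 0.58). Sfrp2 was at 9.23, 19 and 71.6 and 9.81, 7.69 and 10.9 (1.82 ± 0.50). Wnt7a was at 0.609, 0.334 and 2.53 and 0.174, 0.0404 and 0.155 (3.21 ± 0.83). Replicate 3 of CaPS was the highest library for Notum, Fzd10, Sfrp2 and Wnt7a, and Sfrp2 overlapped. In the same CaPS library neuron markers summed to 887 CPM, against 77.2 and 87.7 in the other two, and neural progenitor markers to 1410, against 311 and 521. Over the whole groups 5 of 7 tested neuron and 4 of 10 neural progenitor markers passed as higher in CaPS, and so did 8 of 10 pluripotency markers (446 to 751 CPM, against 123 to 153 in mCaPS). The part of these cell types was not tested. Without that library none of the 46 genes was called, and without 1 of the mCaPS libraries 1 or 2 were.

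The CaPS-R line was counted in separate tables that held 44 of the 47 genes, so its comparison with WT cannot tell the line from the table. Within CaPS-R, 15 of 36 tested genes were higher and 3 lower on EB day 10 than on day 0 (50%, against 21.5% of all tested genes, 12.7% higher and 8.78% lower), and 17 of 39 were higher and 3 lower on NPC day 8 (51.3%, against 47.8% of all tested genes, 25% higher and 22.7% lower). The EB rises included Dkk1 (6.6 ± 1.05), Rspo3 (4.57 ± 0.73), Wnt11 (4.42 ± 0.83), Fzd2 (3.04 ± 0.48) and Fzd1 (2.75 ± 0.29). Wnt10b went from 2 to 239 counts in all (ratio 84.9, 95% counting interval 23.3 to 705). The EB falls were Wnt16 (-3.33), Dkk2 (-3.23) and Wnt7b (-1.58), calls kept in 1, 2 and 1 of 6 fits with a library left out. In the same course 9 of 14 fibroblast and feeder markers, 6 of 10 pluripotency markers and 2 of 6 tested neuron markers passed as lower. Those that passed as higher were 8 of 9 mesoderm and cardiac, 4 of 5 tested endoderm and 4 of 8 tested neural progenitor markers. The part of all these cell types in the EB course was not tested. In the neural series Fzd3 (4.76 ± 0.28), Nkd1 (4.19 ± 0.44), Axin2 (4.01 ± 0.32) and Fzd8 (3.75 ± 0.40) rose. Wnt1 went from 2 to 2716 counts (ratio 938, interval 259 to 7750), Wnt10b from 2 to 425 (147, 40.4 to 1220) and Rspo3 from 1 to 114 (78.8, 13.9 to 3140). Fzd5 (-3.55 ± 0.25), Sfrp4 (-3.79 ± 0.95) and Notum (-2.64 ± 0.60) fell. In this neural course all 10 neural progenitor and 6 of 7 tested neuron markers passed as higher, with 1 neuron marker lower. All 10 pluripotency markers passed as lower, and the part of these cell types was not tested.

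Against WT on EB day 10, CaPS-R had 2 genes higher and 7 lower of 43 (20.9%, against 17.3% of all tested genes, 8.24% higher and 9.05% lower). On the scale of the joint fit, Wnt2 was at 0.628, 0.875 and 0.678 CPM, against 10.9 or more in WT (log2 fold change -4.84 ± 0.85 (SE), adjusted p = 0.000108). Notum was at 11.9, 8.22 and 11.3 (1.89 ± 0.57) and Fzd5 at 143, 114 and 195 (1.1 ± 0.34), both above WT. Fzd4 was at 12.1, 4.02 and 8.45 (-1.84 ± 0.60) and Fzd2 at 46.7, 29.9 and 76.1 (-1.42 ± 0.38), both below WT. Fzd3 was at 46.7, 29.7 and 39.4 (-1.28 ± 0.39). Wnt9b (-3.14), Wnt16 (-2.57) and Rspo1 (-1.54) were lower too. The Wnt2 call held in all 6 fits with a library left out, and the other eight held in 2 to 5 of them. There were 5 calls without replicate 1 or 2 of WT and 4 without replicate 2 of CaPS-R. Pluripotency markers summed to 1465 to 1709 CPM in CaPS-R and 149 to 419 in WT on that day (8 of 10 higher), and mesoderm and cardiac markers to 138 to 172 against 491 to 1039 (5 of 9 lower). Their part was not tested.

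On NPC day 8, 3 of 43 genes differed between CaPS-R and WT (6.98%, against 14% of all tested genes, 7.88% higher and 6.1% lower). Axin2 was at 149, 216 and 270.0 CPM in CaPS-R (log2 fold change 1.72 ± 0.40 (SE), adjusted p = 0.00262), with every library above every WT library, and this call held whichever library was left out. Rspo2 was at 2.43, 0.182 and 0.203 (4.4 ± 1.49), highest in replicate 1. Sfrp4 was at 0.486, 0.091 and 0.271 (-1.91 ± 0.64) and overlapped WT. There was 1 call without replicate 2 or 3 of WT, and 5 without replicate 1 of CaPS-R. Of 10 pluripotency markers 5 passed as lower in CaPS-R on that day, and no marker of the other lists passed. Their part was not tested.

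Other genes of the pathway, from lists of known components, moved unevenly in the WT courses. Each count is to be read against the share of all tested genes, 14.7% higher and 14.5% lower on EB day 10. On that day, 5 of 9 further inhibitors rose and none fell, led by Cer1 (5.60), Sost (3.71) and Frzb (3.61), and 5 of 13 further receptors rose and 2 fell, with Lgr5 (5.37), Gpc3 (3.86) and Rnf43 (3.35) up and Lgr6 (-4.11) and Lgr4 (-1.18) down. Of 10 known target genes 3 rose, among them Cdx2 (4.08) and Sp8 (3.43), and Ccnd1 (-1.69), which encodes cyclin D1, fell. Of 12 destruction complex genes only Tnks (1.62) passed, and of 12 TCF/LEF factors and cofactors Pygo1 (1.69) and Tle4 (-1.61). Planar polarity genes gave 4 of 10 up, with Daam2 (2.08), Prickle1 (1.64) and Celsr1 (1.02), and Celsr3 (-1.29) down. Wls, which carries ligands to the surface, rose by 1.99 and Porcn, which adds their lipid, fell by 0.64 on the log2 scale.

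On NPC day 8, when 27.5% of all tested genes were higher and 24.9% lower, the planar polarity genes gave 7 of 10 up, led by Celsr2 (4.82), Vangl2 (2.89) and Prickle2 (2.32), and Vangl1 (-0.97) down. The destruction complex gave 6 of 12 up, with Apc2 (3.22), Gsk3b (1.80) and Dvl3 (1.57), and none down. TCF/LEF factors and cofactors split into 5 up, with Pygo1 (2.77), Tcf7l2 (1.81) and Tle1 (1.40), and 4 down, with Tle4 (-2.24), Tcf7l1 (-1.41) and Lef1 (-1.22). Targets gave 1 of 9 up, Sp8 (4.59), and 5 down, among them T, Myc (-2.96) and Cdx1 (-2.18). Further receptors gave 6 of 13 up, with Lgr5 (4.34), Rnf43 (2.77) and Gpc3 (2.69), and 3 down, Lgr6 (-2.61), Kremen2 (-2.16) and Ptk7 (-0.63). Further inhibitors gave 4 of 9 up, with Sostdc1 (5.64), Sost (3.01) and Frzb (2.98), and 1 down. Wls rose by 2.16. In mCaPS against WT on NPC day 8, where the shares of all tested genes were 9.39% higher and 9.06% lower, 3 of 10 planar polarity genes were higher, Prickle1 (1.62), Prickle2 (1.44) and Daam2 (1.18), and 5 lower, with Celsr3 (-4.10), Celsr2 (-3.54) and Vangl2 (-1.99). Apc2 (-3.48), Dvl3 (-0.70) and Frzb (-3.01) were lower there, and Shisa3 (3.31) and Gpc3 (2.14) higher. These genes were named from other lists, whose counts are not given here, so they cannot be set against those shares. All 8 neuron markers were lower in that comparison, and their part in these values was not tested.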

How the data were processed

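RNA-seq was done in 90 libraries, 30 groups of 3. Count tables per gene were deposited by the authors, with coordinates and transcript length. Per the submitters' processing notes, reads were handled with STAR 2.7.0, cutadapt 1.14, HOMER 4.10.4, edgeR and featureCounts 1.6.3 on mm10; the notes give no roles. Library kits were directional, per the labels' protocols; the strand setting of the counting is not given in the sources used here.

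From these counts, edgeR 4.0.16 (R 4.3.3) was run with TMM scaling, filterByExpr and the robust quasi-likelihood test, with Benjamini-Hochberg adjustment over all genes tested and a threshold of 0.05. Each fit used 36 libraries (12 groups) of a series, with 17791 EB and 17818 NPC genes tested. CaPS-R had a fit of its own, and a joint fit of 45 libraries for its comparison with WT. The SE is the unshrunk log2 fold change divided by the square root of the F statistic. Groups were taken from the labels. Ratios with 1 to 3 counts in a group have 95% counting intervals, which cover counting error only.

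Rows whose gene name had become a date were dropped (22 in each CaPS-R table and 23 in the other EB table), as were partial last lines, and 9 columns of a further line were not used. Sequences came from RefSeq. The fit was tested on simulated data. Values were given per library for the called genes with the largest change, up to 10 per direction in each WT course on its last day and up to 10 per comparison between lines. Of each other pathway list, up to 3 genes per direction were named. Members and lists, including the marker lists, were chosen with earlier results of these data known. Alternatives were DESeq2 1.42.0 and its size factors, no filter, Rn45s left out, the compared groups only, the replicate number as a block, and each library left out. Deviations of same-numbered libraries from their group means correlated at 0.116 to 0.749 for the WT EB courses and for CaPS with WT, where every pair exceeded 0.1, so these were taken as paired; the labels give only the number.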

Additional observations from a re-analysis of the deposited data

Results flagged for a closer look

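The change from day 0 to day 8 of the neural series differed between mCaPS and WT for 12 genes, by edgeR's quasi-likelihood test of the difference between the courses. In log2 units, mCaPS minus WT, the differences were 5.78 for Rspo2 (adjusted p = 0.0391), 5.18 for Wnt11 (adjusted p = 0.00807), 3.66 for Dkk2 (adjusted p = 0.0194) and 3.57 for Rspo3 (adjusted p = 0.0481). Sfrp1 differed by 3.01 (adjusted p = 0.0151), Dkk3 by 2.97 (adjusted p = 0.0296) and Fzd4 by 2.73 (adjusted p = 0.0392). The course of mCaPS was below that of WT by edgeR for Fzd10 at -4.42 (adjusted p = 0.02), Wnt7b at -4.17 (adjusted p = 0.00212), Wnt7a at -3.63 (adjusted p = 0.0433), Sfrp4 at -3.24 (adjusted p = 0.00874) and Fzd3 at -2.78 (adjusted p = 0.0279). Dkk2 differed between these lines on day 0 already, where the summed fibroblast and feeder markers differed too. Differences on day 0 that did not pass are also part of a course difference. Mean Sfrp1 was 4.82 CPM per kb in mCaPS and 11.7 in WT on that day, and Wnt7b 3.74 and 1.64, while Sfrp4 was at 3.22 and 3.03. With 1 library left out at a time, Wnt11, Sfrp1, Sfrp4 and Wnt7b kept the call in all 12 fits, Dkk2 in 10, Fzd3 and Fzd10 in 8, Dkk3 in 5, Wnt7a in 4, Fzd4 in 3 and Rspo2 and Rspo3 in 2. In the same test the courses of 11 of 14 fibroblast and feeder markers were higher in mCaPS, and those of 5 of 8 neuron and 2 of 10 neural progenitor markers lower. The part of these cells in the differences was not tested.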

How the results depend on the processing

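Across 34 comparisons, 22 kept their count of called genes within 1.5 times under each alternative other than leaving out a library. The main fit gave 0 calls in 18 of the 34, and most of the 22 were among these 18. All 2217 values of the called genes under alternatives kept their direction, of which 1878 were still called and 339 were not. The genes had passed in the main fit, and the refits shared most of the compared libraries with it. A kept direction was therefore close to fixed beforehand and is not separate support. With DESeq2 the counts that moved were 19 for WT EB day 6, 6 for mCaPS against WT on EB day 0, 3 for the KO-labelled line on EB day 10, 8 for CaPS against mCaPS on EB day 10, 4 for CaPS and 1 for the KO-labelled line against WT on NPC day 8, 4 and 14 for mCaPS on NPC days 0 and 6, 8 for the KO-labelled line on NPC day 0, 2 for CaPS against mCaPS on NPC day 8, 2 for the KO-labelled course in NPC and 5 for CaPS-R against WT on NPC day 8. With the compared groups only they were 4 for WT EB day 6, 0 for the KO-labelled line and 0 for CaPS against mCaPS on EB day 10, 14 for mCaPS on NPC day 6, 1 for the KO-labelled line on NPC day 0, 0 for CaPS against mCaPS on NPC day 8 and 5 for CaPS-R on NPC day 8. Without the filter mCaPS on NPC day 6 gave 5 and CaPS against mCaPS on NPC day 8 gave 0. Without Rn45s CaPS-R against WT on NPC day 8 gave 5, and without the WT and CaPS libraries numbered 1 the KO-labelled line gave 3 on EB day 10. The cause of these moves was not tested, and the share of all genes called under each alternative is not given here.

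With the replicate number as a block, where the libraries were paired, WT EB day 6 gave 14 calls and WT EB day 10 added Fzd6 (log2 fold change 0.88, adjusted p = 0.0318 by edgeR); no other call of the paired comparisons changed. Where they shared only a number, the block gave 1 for mCaPS on EB day 0, 14 for mCaPS on NPC day 6, 6 for the KO-labelled line on NPC day 0 and 3 for CaPS against mCaPS on NPC day 8.

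Leaving out 1 library at a time gave 4 to 10 calls for WT EB day 6, 20 to 23 for EB day 10, 17 to 20 and 18 to 20 for WT NPC days 6 and 8. For mCaPS against WT it gave 0 to 1 on EB day 0, and 1 to 2, 0 to 12 and 7 to 20 on NPC days 0, 6 and 8. For CaPS it gave 0 to 2 and 0 to 10 on NPC days 6 and 8. For the KO-labelled line it gave 0 to 2 on EB day 10, and 1 to 8 and 0 to 1 on NPC days 0 and 8. CaPS against mCaPS gave 0 to 7 on EB day 10 and 0 to 3 on NPC day 8. The NPC courses against WT gave 0 to 1 for CaPS, 4 to 15 for mCaPS and 0 to 1 for the KO-labelled line. CaPS-R gave 14 to 17 in its EB course, 17 to 22 in its NPC course, 4 to 8 against WT on EB day 10 and 1 to 5 on NPC day 8. EB library totals ran from 10.6 to 55.9 M counts outside CaPS-R, and few counts lay behind genes near 1 CPM; no effect of depth was tested.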
